A study of Caenorhabditis elegans with 12 samples.

Results

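Mitochondria keep their own ribosome, which translates the few messenger RNAs encoded by mitochondrial DNA, all of them for subunits of the respiratory chain and the ATP synthase. Its ribosomal RNAs come from mitochondrial DNA, while every one of its proteins is encoded in the nucleus, translated in the cytosol and imported. The large subunit (mrpl genes) holds the peptidyl transferase centre and the exit tunnel, and the small subunit (mrps genes) binds the messenger RNA and holds the decoding centre. In worms, knockdown of mitochondrial ribosomal proteins is known to activate the mitochondrial unfolded protein response (UPRmt), in which nuclear genes for mitochondrial chaperones and proteases are induced.

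The genes described are those whose symbol in the deposited table is mrpl or mrps followed by a number, together with tsfm-1, which encodes the mitochondrial elongation factor Ts, and whose mean level over the 6 columns of the table was 1 FPKM or more. FPKM counts the sequenced fragments of a gene per kilobase of its transcript and relative to all mapped fragments. By name 67 genes matched and all 67 passed the level, 39 of the large subunit, 27 of the small subunit and tsfm-1, out of 13337 genes that passed the level and 46245 in the table. The rule itself uses names and that minimum level only. The reference annotation gives mrpl-14 under its sequence name F45E12.5 and names the other 66 as the table does. It also gives 5 further genes as mitoribosomal (dap-3, F02A9.4, K11B4.1, CD4.3 and T14B4.2). Their symbols in the deposited table are not mrpl or mrps with a number, so they were not counted as members.

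Messenger RNA was measured in whole Caenorhabditis elegans at 20 °C on day 1 of adulthood. Per the labels, all groups carried glp-4(bn2), a temperature-sensitive allele under which few germ cells form at the restrictive temperature, whereas the text of the study calls the control animals of this sequencing wild-type. The 6 groups were hda-1 RNAi with atp-2 RNAi, hda-1 RNAi alone, dve-1 RNAi with atp-2 RNAi, dve-1 RNAi alone, L4440 with atp-2 RNAi and L4440 alone, where L4440 is the empty RNAi vector. HDA-1 is a histone deacetylase, DVE-1 is a transcription factor of the homeodomain class with a role in the UPRmt, and ATP-2 is the ATP synthase beta subunit, whose knockdown served as the mitochondrial perturbation. The labels also say that the bacteria against atp-2 were given 30 h after the first RNAi. Each group had 2 libraries, which the authors combined into 1 value per gene, so no difference below could be held against a spread between replicates, no test was possible and no p-value is given.

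The RNAi targets were checked first. The hda-1 signal was higher, not lower, under its own RNAi, with 811 FPKM under the label hda-1 and atp-2 RNAi against 21 under L4440 and atp-2 RNAi, and 1207 FPKM under the label hda-1 RNAi against 18.8 under L4440. These columns are called hda-1-labelled throughout, also where a direction is drawn from them, since their values do not show a lower hda-1 transcript. The study measured endogenous hda-1 mRNA under hda-1 RNAi separately, by qRT-PCR, and refers to it when discussing RNAi efficiency. Whether the signal here comes from the endogenous transcript was not tested. atp-2 itself stood at 554 and 861 FPKM in the hda-1-labelled columns with and without atp-2 RNAi, at 423 and 1090.1 FPKM in the dve-1 RNAi columns, and at 598 and 1094 FPKM in the L4440 columns, so it was lower with atp-2 RNAi in each background. dve-1 was at 14.3 FPKM with dve-1 and atp-2 RNAi against 19.6 with L4440 and atp-2 RNAi, and at 11.1 FPKM with dve-1 RNAi against 25.4 with L4440. The columns held an estimated 16200000 to 18700000 fragments, and the 67 genes 59 to 1302 estimated fragments each per column, with a median of 294.

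The 67 genes were all expressed at a moderate level. Their mean FPKM over the 6 columns had a median of 19.3, against 10.1 for all kept protein-coding genes, and ran between 6.07 for mrps-31, a small subunit protein found in mitochondria and not in bacteria, and 52.3 for mrpl-14, whose bacterial homologue lies at the interface of the subunits. After mrpl-14 the highest were mrps-14 at 43, mrps-11 at 42.4, mrps-33 at 42 and mrpl-36 at 37.4 FPKM, and after mrps-31 the lowest were mrps-9 at 8.91, mrps-34 at 9.13, mrpl-39 at 9.73 and mrps-22 at 10.9 FPKM. The highest mean was thus within 10 times the lowest. The median cytosolic ribosomal protein gene stood at 60.7 to 108 times the median member in the 6 columns.

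The question that the atp-2 comparison addresses is how nuclear genes answer a mitochondrial perturbation. In animals on the empty vector, all 67 genes were higher with atp-2 RNAi than without it, where 66% of all kept genes were. The ratios were moderate, with a median of 0.51 on the log2(FPKM + 1) scale. Their quartiles were 0.37 and 0.68 and their range 0.13 to 1.50. The median of all kept genes was 0.11, so that the members' median was 0.40 above it, and all 67 lay above it one by one. The summed level of the 67 genes was 1799 FPKM with atp-2 RNAi and 1225 FPKM without. Under another scaling of the columns, by median of ratios or by upper quartile, the median of all genes moved to -0.02 and 0.00, and 64 of the 67 stayed above 0, the exceptions under both being mrpl-28, mrps-21 and mrps-24.

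**Figure D1:**
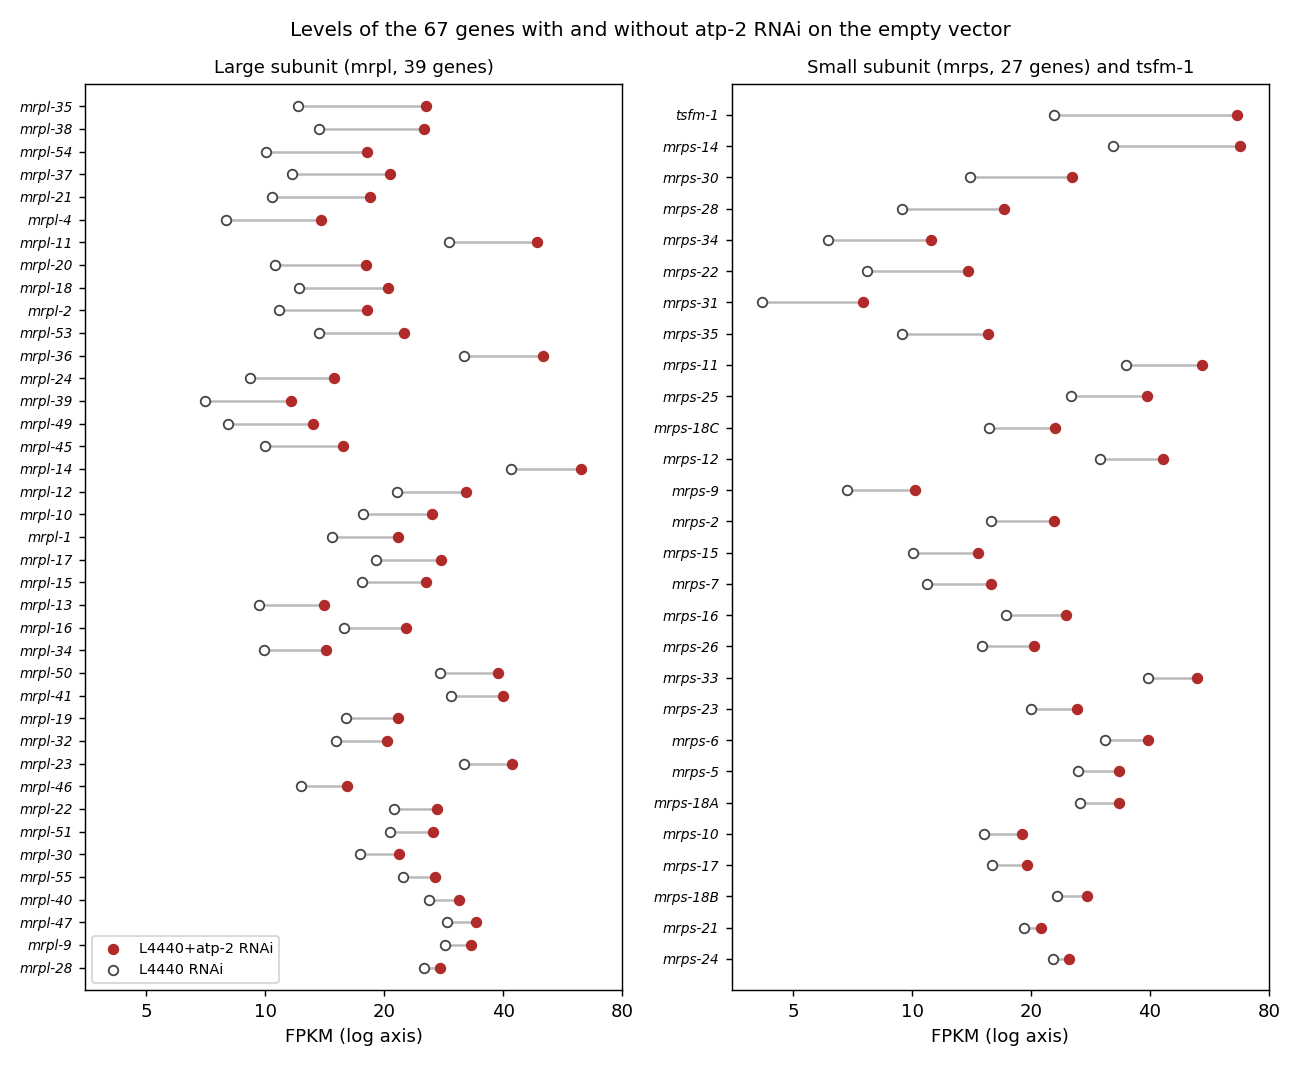
FPKM (log axis) of each of the 67 genes, with L4440 and atp-2 RNAi as filled points and L4440 alone as open points, 1 combined value per group, sorted by log2 ratio within the large subunit (left) and the small subunit with tsfm-1 (right). Every filled point lies right of its open point, and tsfm-1, mrps-14 and mrpl-35 show the widest gaps, with log2 ratios of 1.50, 1.04 and 1.01.

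A ratio of 2-fold or more with at least 5 FPKM in the higher column was reached by 3 of the 67 genes, against 1.89% of all kept genes, and a log2 ratio of 0.5 or more under the same minimum by 39 of 67, against 7.4%. Genes below that minimum in both columns count in these and the later shares but cannot be called. With L4440 and atp-2 RNAi the lowest member stood at 7.49 FPKM and the median of all kept genes at 8.89 FPKM. tsfm-1 (WBGene00010094, chromosome V, 12270271 to 12271551) had the highest ratio, 1.50. Its product recharges the elongation factor Tu of mitochondria, so it works with the ribosome and is not a part of it. tsfm-1 was at 27.4 and 17.4 FPKM in the hda-1-labelled columns with and without atp-2 RNAi, at 29.8 and 19.9 FPKM in the dve-1 RNAi columns, and at 66.5 and 22.9 FPKM in the L4440 columns. The L4440 column with atp-2 RNAi thus stood alone, more than double any of the other 5 columns.

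mrps-14 (WBGene00011334, chromosome II, 10240277 to 10242490), a protein of the head of the small subunit, had the next highest ratio, 1.04. Its levels were 54.9 and 32.5 FPKM in the hda-1-labelled columns with and without atp-2 RNAi, 41.2 and 29.6 FPKM with dve-1 RNAi, and 67.5 and 32.2 FPKM with L4440. The 3 columns without atp-2 RNAi lay close together, and all 3 columns with it lay above them. mrpl-35 (WBGene00010812, chromosome III, 3510237 to 3510974), a large subunit protein with a bacterial homologue, had 22.7 and 13.5 FPKM in the hda-1-labelled columns with and without atp-2 RNAi, 20.2 and 14.8 FPKM with dve-1 RNAi, and 25.5 and 12.1 FPKM with L4440, a log2 ratio of 1.01 in L4440. Both of these were just past 2-fold, and under either other scaling their ratios were 0.85 to 0.90, while that of tsfm-1 was 1.33 and 1.36.

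The next members in order have no bacterial counterpart. mrpl-38 had 25.1 FPKM with atp-2 RNAi against 13.6 FPKM in L4440 (log2 0.84), and mrps-30, which in mammals is found on the large subunit, had 25.4 against 14 FPKM (0.81). Among the lowest ratios, mrpl-28 had 27.6 FPKM with atp-2 RNAi and 25.2 FPKM without (0.13), mrps-24 had 25 and 22.7 FPKM (0.13), and mrps-21 had 21.2 and 19.2 FPKM (0.13). These last 3 were the members closest to the median of all genes. mrps-5, whose knockdown is widely used in worms to induce the UPRmt, lay low in the range, at 33.4 FPKM with atp-2 RNAi against 26.2 FPKM in L4440 (0.34). The counting error of the log2 ratios, estimated from the fragments, had a median of 0.12 (0.07 to 0.22), which does not include any spread between cultures.

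Some members were picked by the role of their homologues at the working sites of the ribosome. For the large subunit in L4440, log2 ratios were 0.69 for mrpl-2, whose bacterial homologue lies by the peptidyl transferase centre, 0.55, 0.72 and 0.56 for mrpl-10, mrpl-11 and mrpl-12 of the stalk and its base, where elongation factors dock, and 0.73, 0.35, 0.39 and 0.65 for mrpl-4, mrpl-22, mrpl-23 and mrpl-24 around the exit tunnel. mrpl-45, which in mammals ties the ribosome to the inner membrane, had 0.61. For the small subunit, mrps-12 of the decoding centre had 0.52, and mrps-7, mrps-9 and mrps-10 of the head had 0.50, 0.51 and 0.30. mrps-14 and mrps-24, whose homologues also lie in the head, had 1.04 and 0.13, so that members of the head lay near both ends of the range of the 67 genes.

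The subunits were set against each other as a whole. The large subunit had a median log2 ratio of 0.53 and the small subunit 0.50 in L4440, 0.43 and 0.41 in the hda-1-labelled columns, and 0.29 and 0.23 with dve-1 RNAi. The standard deviation among single genes was 0.20 for the large and 0.22 for the small subunit in L4440, and the differences between the medians were not tested. The summed FPKM of the large subunit was 1.34 and 1.35 times that of the small subunit in the hda-1-labelled columns with and without atp-2 RNAi, 1.41 and 1.36 times with dve-1 RNAi, and 1.39 and 1.39 times with L4440. Proteins found only in mitochondria (22 genes) had a median of 0.63 in L4440 and those with a bacterial homologue (44 genes) 0.50, with 0.42 and 0.40 in the hda-1-labelled columns and 0.27 and 0.24 with dve-1 RNAi. The standard deviations among single genes in L4440 were 0.19 and 0.21, and the gap between the medians was not tested.

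The ratios of the members were also compared across backgrounds. Over the 67 genes, the atp-2 RNAi ratios in the hda-1-labelled columns and in L4440 had r = 0.54 (rho = 0.54), and those with dve-1 RNAi and in L4440 had r = 0.49 (rho = 0.48), where all 13337 kept genes had r = 0.15 (rho = 0.34) and r = 0.21 (rho = 0.34). The compared ratios share no column, but genes are not independent replicates, so these are descriptions.

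Next, the response to atp-2 RNAi was followed into the backgrounds that the study used to ask whether hda-1 and dve-1 act in the UPRmt. In the hda-1-labelled columns, 66 of 67 genes were higher with atp-2 RNAi, against 60.3% of all kept genes, with a median log2 ratio of 0.41, which was 0.35 above the median of all genes. None of the 67 reached 2-fold, against 0.742% of all kept genes, and 18 reached a log2 ratio of 0.5, against 4.52%. Their sum was 1662 FPKM with atp-2 RNAi and 1250 FPKM without. With dve-1 RNAi, 65 of 67 genes were higher with atp-2 RNAi, against 53.7% of all kept genes, and the median was 0.26, which was 0.24 above that of all genes. Again none reached 2-fold, against 0.997%, and 7 reached a log2 ratio of 0.5, against 3.64%. Their sum was 1625 FPKM with atp-2 RNAi and 1353 FPKM without.

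**Figure D2:**
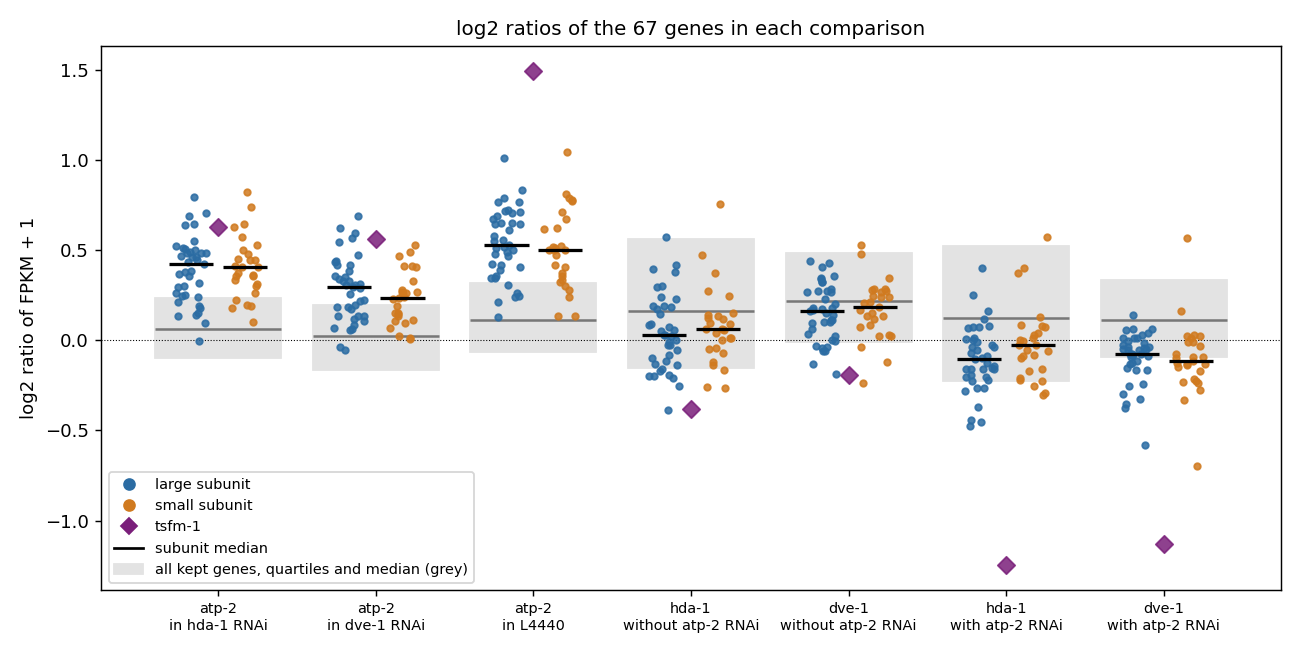
log2 ratio of FPKM + 1 of each of the 67 genes in the 7 comparisons, for the large subunit, the small subunit and tsfm-1 (diamond), with black bars for subunit medians and grey boxes for the quartiles and median of all kept genes. With atp-2 RNAi, 66, 63 and 67 of the 67 members lie above the median of all genes from left to right, with members' medians of 0.41, 0.26 and 0.51. In the 4 comparisons with L4440 the members lie mostly around or below the median of all genes.

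The difference between backgrounds was taken gene by gene, by subtracting the atp-2 RNAi ratio (log2) in L4440 from that in the other background. It was below 0 for 50 of 67 genes in the hda-1-labelled columns, against 56.2% of all kept genes, with a median of -0.15 where all genes had -0.04. After upper-quartile scaling, 31 of the 67 lay above 0 in this difference, in place of 17. The median of all genes then moved to 0.05, and the members' median relative to it was -0.10, against -0.11 as deposited. With dve-1 RNAi the difference was below 0 for 59 of 67, against 65.4% of all kept genes, with a median of -0.26 where all genes had -0.11. After upper-quartile scaling, 18 of the 67 lay above 0 here, in place of 8, and the median of all genes was 0.01. The members' median relative to it was -0.15, against -0.16 as deposited. The members' median ratio in the hda-1-labelled columns was 79.7% of that in L4440 and with dve-1 RNAi 51.3%. After the median of all genes was taken off each, the shares were 86.9% and 59.9%. The level of atp-2 itself also changed by different amounts. Its log2 ratio with atp-2 RNAi was -0.64 in the hda-1-labelled columns, -1.36 with dve-1 RNAi and -0.87 in L4440. The part of this in the shares was not tested. Both differences use the same L4440 columns, so they are not independent, and neither was tested. Each subtracts the L4440 ratio, so genes with a high L4440 ratio tend towards a low difference, and the reverse.

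In the hda-1-labelled columns, the highest ratios were those of mrps-28 (0.82), mrpl-39 (0.80), mrps-14 (0.74), mrpl-35 (0.71) and mrpl-20 (0.69), and with dve-1 RNAi those of mrpl-54 (0.69), mrpl-20 (0.62), mrpl-36 (0.60), mrpl-4 (0.57) and tsfm-1 (0.56). mrpl-20, needed for large subunit assembly in bacteria, was thus among the highest in both, and it stood at 0.71 in L4440. The lowest differences after tsfm-1 were those of mrpl-45 (-0.46), mrps-34 (-0.44), mrpl-38 (-0.41) and mrpl-37 (-0.39) in the hda-1-labelled columns, and those of mrpl-18, mrpl-35 (-0.59), mrpl-11 (-0.59) and mrps-14 (-0.58) with dve-1 RNAi.

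tsfm-1 had the lowest difference of all 67 genes in both backgrounds, -0.87 in the hda-1-labelled columns and -0.94 with dve-1 RNAi. These low ranks are partly built in, since its L4440 ratio, the highest of the 67 at 1.50, is subtracted in both. The same holds in reverse for mrps-21, whose L4440 ratio was 0.13. For mrpl-18, a large subunit protein whose bacterial homologue binds 5S ribosomal RNA, the difference was -0.76 with dve-1 RNAi. It had 19.1 and 14.5 FPKM in the hda-1-labelled columns with and without atp-2 RNAi, 15.8 and 16.5 FPKM with dve-1 RNAi, and 20.4 and 12.1 FPKM with L4440, so that with dve-1 RNAi the 2 columns were nearly equal. mrps-21, a small subunit protein, had the highest difference in the hda-1-labelled columns, 0.51. It had 27.8 and 17.4 FPKM there with and without atp-2 RNAi, 19.3 and 16.2 FPKM with dve-1 RNAi, and 21.2 and 19.2 FPKM with L4440, which makes the hda-1-labelled column with atp-2 RNAi its highest.

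**Figure D3:**
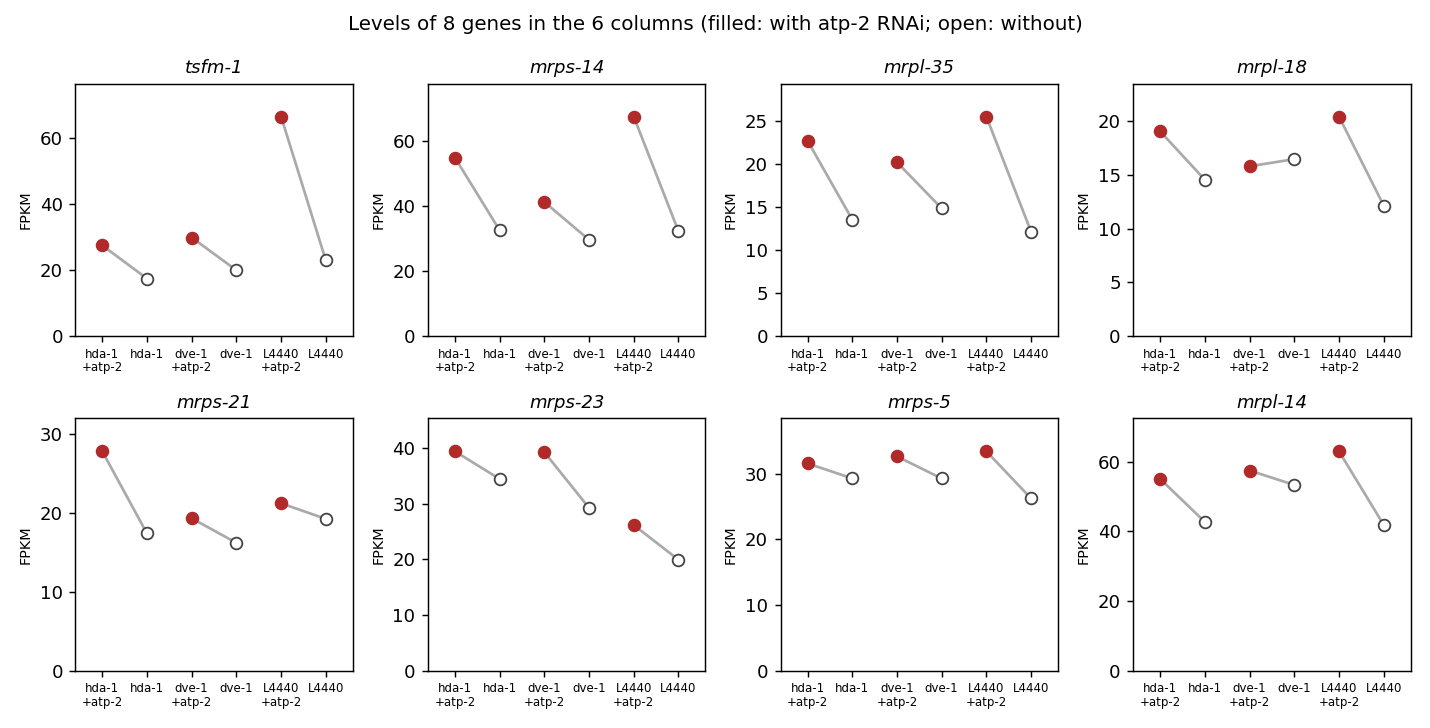
FPKM of 8 of the genes in the 6 columns, 1 combined value per column, with filled points for columns with atp-2 RNAi joined to open points for the matching column without it. tsfm-1 reaches 66.5 FPKM with L4440 and atp-2 RNAi, mrpl-18 is level between the dve-1 RNAi columns at 15.8 and 16.5 FPKM, and mrps-23 is lowest in the L4440 columns at 26.2 and 20.0 FPKM.

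Without atp-2 RNAi, the members differed little between backgrounds. In the hda-1-labelled column without atp-2 RNAi against L4440, the median log2 ratio of the 67 genes was 0.04 where all kept genes had 0.16, and with dve-1 RNAi against L4440 it was 0.17 where all kept genes had 0.22. None of the 67 was higher or lower by 2-fold in either, against 12% of all kept genes in the hda-1-labelled column without atp-2 RNAi and 9.31% with dve-1 RNAi. A log2 ratio of 0.5 or more was reached by 2 members (mrps-23 at 0.76 and mrpl-53 at 0.57) in the hda-1-labelled column without atp-2 RNAi, against 17.9%, and by 1 (mrps-23 at 0.53) with dve-1 RNAi, against 15%. The direction of these medians depends on the scaling. As deposited, 41 and 55 of the 67 were above 0, against 63.2% and 73% of all kept genes. After median-of-ratios scaling 17 and 25 were, where the medians of all kept genes were 0.003 and 0.016. Relative to all kept genes, the members' medians were then -0.13 and -0.08, against -0.12 and -0.05 as deposited.

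With atp-2 RNAi in both columns, the members were mostly slightly lower than in L4440. In the hda-1-labelled column with atp-2 RNAi, 45 of 67 were below 0, against 40.1% of all kept genes, with a median of -0.08 where all genes had 0.13. With dve-1 and atp-2 RNAi, 52 of 67 were below 0, against 34.3%, with a median of -0.08 where all genes had 0.12. tsfm-1 was lower by 2-fold in both, the only member in either, with log2 ratios of -1.25 against 4.34% of all kept genes lower by 2-fold, and of -1.13 against 2.39%. Both ratios are taken against the same L4440 column with atp-2 RNAi, where tsfm-1 stood alone, so they are not separate from its high L4440 ratio. A log2 ratio of -0.5 or less was reached by tsfm-1 alone in the hda-1-labelled column with atp-2 RNAi, against 10%, and by tsfm-1, mrps-14 (-0.70) and mrpl-11 (-0.58) with dve-1 and atp-2 RNAi, against 6.16%.

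mrps-23, a small subunit protein without a bacterial counterpart, had the highest log2 ratio of the 67 genes in each of these 4 comparisons. It had 39.4 and 34.5 FPKM in the hda-1-labelled columns with and without atp-2 RNAi, 39.3 and 29.3 FPKM with dve-1 RNAi, and 26.2 and 20.0 FPKM with L4440. All 4 columns of the other backgrounds were above both L4440 columns, with log2 ratios of 0.57 and 0.76 for the hda-1-labelled columns and 0.57 and 0.53 with dve-1 RNAi. The column with L4440 and atp-2 RNAi was the highest of the 6 for 39 of the 67 genes, against 13.5% of all kept genes, and the L4440 column was the lowest for 38, against 33.7%. The highest column was the hda-1-labelled one with atp-2 RNAi for 20 members, against 26.3% of all kept genes. It was dve-1 and atp-2 RNAi for 7, against 18.7%, and the hda-1-labelled one without atp-2 RNAi for 1, against 16.4%. That 1 was mrpl-22, whose levels were 28.5 FPKM in both hda-1-labelled columns. The hda-1-labelled column without atp-2 RNAi was the lowest for 25 members, against 18.7%, and the dve-1 RNAi column for 4, against 9.93%.

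Translation in mitochondria also needs factors that are no part of the ribosome. Of 27 names listed for these and other steps of mitochondrial gene expression, 13 were found, and their median log2 ratio with atp-2 RNAi was 0.35 in the hda-1-labelled columns, 0.32 with dve-1 RNAi and 0.57 in L4440. The list is mixed, since rpom-1 and hmg-5 serve the transcription and packaging of mitochondrial DNA, and ndx-4, era-1 and C50D2.9 are not known to act in translation. gfm-1, oxa-1 and tufm-1 were past 2-fold in L4440, 3 of the 13, against 1.89% of all kept genes. gfm-1, elongation factor G, had 23.8 and 16.3 FPKM in the hda-1-labelled columns with and without atp-2 RNAi, 26 and 18.5 FPKM with dve-1 RNAi, and 45 and 15.6 FPKM with L4440 (log2 ratios 0.52, 0.47 and 1.47). tufm-1, elongation factor Tu and the partner of tsfm-1, had 67 and 44.5, then 71.6 and 51.5, then 97.6 and 46.6 FPKM in the same pairs of columns (0.58, 0.47 and 1.05). oxa-1, which inserts newly made proteins into the inner membrane, had 10.2 and 6.44, then 8.74 and 6.27, then 12.5 and 4.99 FPKM (0.58, 0.42 and 1.17). For tsfm-1, gfm-1, tufm-1 and oxa-1, the L4440 column with atp-2 RNAi was the highest of the 6.

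The 13 mitochondrial aminoacyl-tRNA synthetases found, which charge the tRNAs that the mitochondrial ribosome reads, had median log2 ratios of 0.29 in the hda-1-labelled columns, 0.23 with dve-1 RNAi and 0.38 in L4440. The highest in L4440 was nars-2, for asparagine, at 9.76 FPKM with atp-2 RNAi against 5.53 FPKM (0.72). The 12 genes of mitochondrial DNA, the messages that this ribosome translates, had 0.05, -0.12 and 0.27 in the same order. The 40 nuclear genes of the respiratory chain, whose products join those of mitochondrial DNA, had 0.12, 0.11 and 0.10, near the medians of all genes of 0.06, 0.02 and 0.11. The 78 cytosolic ribosomal protein genes had 0.03, 0.07 and -0.07. The 17 mitochondrial chaperones, proteases and import genes, which include the UPRmt markers hsp-6 and hsp-60, had 0.32, 0.41 and 0.95. The chaperone list and the list of other mitochondrial gene expression had higher medians than the mitoribosome in L4440 (0.95 and 0.57 against 0.51) and with dve-1 RNAi (0.41 and 0.32 against 0.26), and lower ones in the hda-1-labelled columns (0.32 and 0.35 against 0.41). Differences between lists were not tested.

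**Figure D4:**
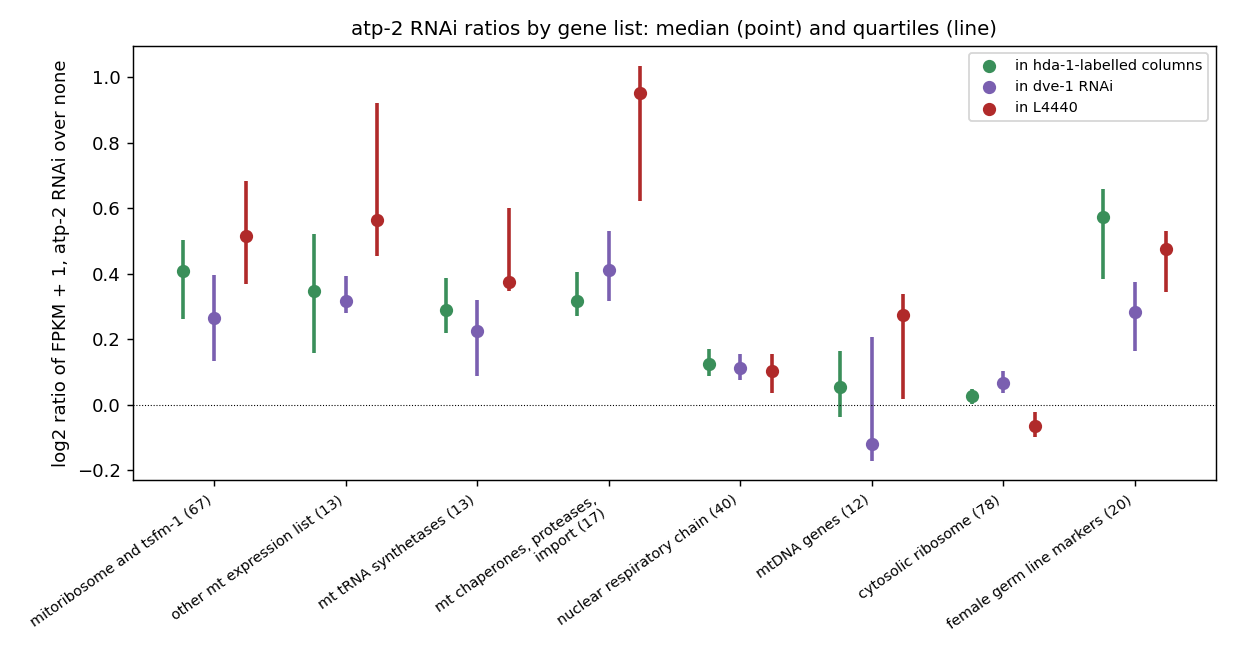
Median (point) and quartiles (line) of log2 ratios, with over without atp-2 RNAi, for 8 gene lists, in the hda-1-labelled columns, with dve-1 RNAi and in L4440, with the number of genes in each list in brackets. The mitoribosome has 0.41, 0.26 and 0.51, the mitochondrial chaperones, proteases and import genes 0.32, 0.41 and 0.95, and the cytosolic ribosome lies near 0.

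Markers of the female germ line moved with atp-2 RNAi in the same columns as the mitoribosome. The allele of these animals limits the germ line at the restrictive temperature, and its effect at 20 °C was not examined. The 20 markers listed were all kept and none was at 0 in any column. Their summed levels were 299 and 196 FPKM in the hda-1-labelled columns with and without atp-2 RNAi, 319 and 253 FPKM with dve-1 RNAi, and 253 and 175 FPKM with L4440, with median log2 ratios of 0.57, 0.28 and 0.48. Their part in the result was not tested, and in whole animals more cells of a type and more RNA per cell cannot be told apart. The 7 intestine markers found had medians of -0.08, 0.33 and 0.09, and the 8 body wall muscle markers 0.12, -0.00 and -0.08. Sperm genes differed between the backgrounds, with sums over the 38 kept of 24.8 and 22.2 FPKM in the hda-1-labelled columns, 1296 and 1569 FPKM with dve-1 RNAi, and 515 and 408 FPKM with L4440. Their part in the comparisons of backgrounds was not tested either.

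In the genome (WBcel235), the 67 genes lie on the 5 autosomes, with 21 on chromosome III, which is 31.3% of them against 16.1% of the kept protein-coding genes. None lies on X, which carries 14.3% of those genes. They are short, with a median protein length of 205 residues (77 for mrpl-36 to 523 for mrps-30) against 358. Of the 67, 25 (37.3%) have another protein-coding gene on the same strand that ends within 500 nt upstream or overlaps their start. The share among kept protein-coding genes was 22.3%. Close spacing is common within worm operons, whose genes are transcribed together, but overlapping genes were not counted apart. The 25 had a median log2 ratio with atp-2 RNAi in L4440 of 0.51, and the other 42 one of 0.52. The members mrps-2 (chromosome V, 8465686 to 8467159) and mrpl-4 (8467265 to 8468943) are such neighbours, 105 nt apart, with ratios of 0.50 and 0.73.

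The ratio was also set against properties of each gene. Over the 67 genes, log2 mean FPKM and the log2 ratio in L4440 had rho = -0.32 (r = -0.21), where both measures draw on the same columns, and exon length and the ratio had rho = 0.18 (r = 0.17). The 5 further genes that the reference annotation gives as mitoribosomal include dap-3 of the small subunit. Their log2 ratios in L4440 were 0.84 for dap-3, 0.23 for F02A9.4, 0.61 for K11B4.1, 0.26 for CD4.3 and 0.38 for T14B4.2. All lay within the range of the 67.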

How the data were processed

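RNA from whole worms (Trizol, HiSeq2500) gave 12 libraries in 6 groups of 2. The authors used TopHat2 2.1.1 to map reads to ce11, retained those that mapped uniquely and ran Cufflinks for the level of each gene, per the labels and the methods of the study. The deposited FPKM hold 1 value per gene and group, with both libraries combined by the authors, so that neither counts nor values per library were used. Strandedness and scaling between libraries are not given in the sources used here. The labels and the methods give different timings for the atp-2 RNAi, and the text of the study speaks of wild-type animals where the labels give glp-4(bn2).

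FPKM were taken as deposited. Genes with a mean of 1 FPKM or more were kept, which left 13337 of 46245. Ratios were log2(FPKM + 1), which understates changes of low genes, and were also given relative to the median of all kept genes. A gene was called at 2-fold, or at a log2 ratio of 0.5, with at least 5 FPKM in the higher column. In 7 comparisons, columns with atp-2 RNAi were set against those without it in 3 backgrounds, and the hda-1-labelled and dve-1 RNAi columns against L4440, with and without atp-2 RNAi. With 1 value per group nothing was tested. The size of 1 fragment in low FPKM (exon length 1000 to 1500 nt) gave an estimate of depth, from which counting error alone follows. That size, in FPKM times kb, was sought between 0.03 and 0.085 and came out at 0.053 to 0.062 over the columns. How far this window sets the estimated depth, fragments and counting errors was not tested. Positions come from Ensembl release 115 (WBcel235, the assembly of ce11), to which 45990 rows and all 67 members were matched. Python 3.11.15, pandas 2.3.3 and numpy 2.4.6 were used, and the procedure was tested on simulated data. The members and gene lists were chosen with earlier results of these data known. Genes named were the members called or among the 5 highest or lowest in a comparison, difference or level, mrps-5, tsfm-1, the RNAi targets and members picked by role. Other pseudocounts, filters, scalings and member lists were tried.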

Additional observations from a re-analysis of the deposited data

Results flagged for a closer look

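For 3 members, the log2 ratio of atp-2 RNAi had opposite signs in 2 backgrounds. mrpl-18 had -0.056 with dve-1 RNAi against 0.71 in L4440, mrpl-34 had -0.038 with dve-1 RNAi against 0.48 in L4440, and mrpl-22 had -0.0039 in the hda-1-labelled columns against 0.35 in L4440. The estimated counting errors of the 3 values near 0 were 0.15, 0.16 and 0.10, so each lay within its own error of 0. The differences were not tested, since each background had 1 value.

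The median of the 67 genes against L4440 was -0.080 in the hda-1-labelled column with atp-2 RNAi and 0.042 in the one without it. With dve-1 RNAi it was -0.083 with atp-2 RNAi and 0.17 without. These changes of sign were not tested, and relative to the median of all kept genes each of the 4 medians was below 0, at -0.20, -0.12, -0.20 and -0.05.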

How the results depend on the processing

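No paired analysis was possible because each group had 1 combined value, and for the same reason leaving out each replicate was not run. Over 11 alternatives, 165 of 181 values stayed within the order-statistic interval of the median over the members, or within 1.5 times for counts, 14 moved and 2 reversed. Medians here are relative to that of all genes. The median for atp-2 RNAi in L4440 ranged over 0.36 to 0.51, in the hda-1-labelled columns over 0.29 to 0.41 and with dve-1 RNAi over 0.19 to 0.26. With a pseudocount of 5 in place of 1, it was 0.29 in the hda-1-labelled columns, the median for dve-1 RNAi with atp-2 RNAi was -0.15, and 1 member was past 2-fold in L4440 in place of 3. With no filter, where the median of all genes is 0, the medians were 0.51 in L4440 and 0.41 in the hda-1-labelled columns. The 2 reversals came here too, where without atp-2 RNAi the medians were 0.042 in the hda-1-labelled column and 0.17 with dve-1 RNAi. With atp-2 RNAi they were -0.080 and -0.083, and the dve-1 by atp-2 difference was -0.26. With a mean of 10 FPKM or more, the medians of the hda-1-labelled columns against L4440 were -0.041 without and -0.090 with atp-2 RNAi. Median-of-ratios and upper-quartile scaling each left 1 member, tsfm-1, past 2-fold in L4440. In 2 alternatives added after the data were seen, adding the 5 further annotated genes left all medians inside their intervals and all counts within that limit, and without tsfm-1 the members lower by 2-fold with atp-2 RNAi were 0 in the hda-1-labelled column and 0 with dve-1 RNAi. Replicate spread is unknown, so small differences between members or subunits cannot be placed against it.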
